A study of Mus musculus with 8 samples.

Results

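The genes described here are the 10 members of a list of cAMP and protein kinase A (PKA) genes, namely Adcy10, Adcy3, Prkaca, Prkacb, Prkar1a, Prkar1b, Prkar2a, Prkar2b, Pde8a and Pde4d. They were chosen by name, and all 10 were found among the 17127 genes of the deposited table after its Ensembl identifiers were matched to GENCODE symbols. RNA-seq was performed on whole adult testes of 4-month-old male mice, 4 wild-type (genotype WT) and 3 homozygous Iqch mutants (Iqch-/-), with 1 library per mouse. The mutants, generated from B6CBAF1 (C57BL/6xCBA) zygotes with CRISPR-Cas9, carried frameshift deletions in a late coding exon of Iqch in every cell of the body. The labels do not say which of the edited lines each mouse came from. In the paper, a plot of Iqch read coverage labels the mutant RNA-seq data with the name of 1 of these lines. Mutant 3 is not analysed here, so the libraries are wild type 1 to 4 and mutants 1, 2 and 4. According to the study's methods, an outlying mutant was excluded.

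cAMP is made from ATP by adenylyl cyclases, acts mainly by releasing the catalytic subunits of PKA from their regulatory subunits, and is broken down by phosphodiesterases. In somatic cells of the testis, cAMP carries the signals of the gonadotropins, LH in Leydig cells and FSH in Sertoli cells. In sperm it is made largely by the soluble, bicarbonate-activated cyclase ADCY10, and PKA anchored along the tail by A-kinase anchoring proteins (AKAPs) is required for motility and capacitation. Adcy10, Adcy3, Prkaca and Prkar2a were set down as the 4 sperm-enriched members from general knowledge, with the place of Adcy3 the least certain. Prkacb, Prkar1a, Prkar1b, Prkar2b, Pde8a and Pde4d were set down as the 6 somatic or broadly expressed members.

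Promoters of Prkar1a, Prkar2a, Prkaca, Prkacb and Adcy10 are printed, and those of the other members are not. Promoters are described because the nuclear targets of PKA, the CREB and CREM factors, bind the cAMP response element, TGACGTCA, or one of its arms, TGACG. RefSeq promoters of the GRCm38.p6 assembly (250 bases before to 50 bases after a transcript start) were given for all 10 members, 24 in all, and each was found once in GRCm39, whose coordinates are used. They are written 5′ to 3′ on the strand of the gene, and capitals mark the full element or an arm.
Prkar1a, chr11:109541525-109541824, plus strand: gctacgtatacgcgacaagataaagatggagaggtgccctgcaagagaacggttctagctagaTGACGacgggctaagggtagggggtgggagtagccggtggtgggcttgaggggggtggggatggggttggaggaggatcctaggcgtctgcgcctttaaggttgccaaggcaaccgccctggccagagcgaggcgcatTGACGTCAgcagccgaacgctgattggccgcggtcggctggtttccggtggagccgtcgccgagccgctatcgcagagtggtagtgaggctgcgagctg
Prkar2a, chr9:108569092-108569391, plus strand: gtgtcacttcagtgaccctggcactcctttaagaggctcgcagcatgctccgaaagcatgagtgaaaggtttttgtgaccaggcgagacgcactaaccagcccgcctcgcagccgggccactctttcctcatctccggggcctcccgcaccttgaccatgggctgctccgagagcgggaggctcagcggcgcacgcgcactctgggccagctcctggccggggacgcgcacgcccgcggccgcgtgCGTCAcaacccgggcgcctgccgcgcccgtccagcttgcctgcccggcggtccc
Prkaca, upstream start, chr8:84699357-84699656, plus strand: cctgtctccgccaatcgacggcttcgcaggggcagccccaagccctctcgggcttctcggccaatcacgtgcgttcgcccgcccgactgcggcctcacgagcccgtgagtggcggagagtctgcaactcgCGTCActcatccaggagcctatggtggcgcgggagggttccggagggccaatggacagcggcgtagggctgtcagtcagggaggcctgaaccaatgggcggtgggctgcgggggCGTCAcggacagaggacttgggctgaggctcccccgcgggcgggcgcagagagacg
Prkaca, downstream start, chr8:84703262-84703561, plus strand: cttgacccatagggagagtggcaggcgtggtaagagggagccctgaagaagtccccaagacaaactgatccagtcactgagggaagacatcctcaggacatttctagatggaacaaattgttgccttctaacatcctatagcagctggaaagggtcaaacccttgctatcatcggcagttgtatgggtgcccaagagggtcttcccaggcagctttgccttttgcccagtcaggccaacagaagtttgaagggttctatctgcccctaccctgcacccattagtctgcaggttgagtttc
Prkacb, chr3:146518652-146518951, minus strand: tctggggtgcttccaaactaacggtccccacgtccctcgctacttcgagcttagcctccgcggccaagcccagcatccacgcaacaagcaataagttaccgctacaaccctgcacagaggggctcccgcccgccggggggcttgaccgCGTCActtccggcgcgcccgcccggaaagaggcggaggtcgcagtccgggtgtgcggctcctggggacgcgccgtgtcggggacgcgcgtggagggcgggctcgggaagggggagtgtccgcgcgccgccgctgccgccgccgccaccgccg
Adcy10, chr1:165312502-165312801, plus strand: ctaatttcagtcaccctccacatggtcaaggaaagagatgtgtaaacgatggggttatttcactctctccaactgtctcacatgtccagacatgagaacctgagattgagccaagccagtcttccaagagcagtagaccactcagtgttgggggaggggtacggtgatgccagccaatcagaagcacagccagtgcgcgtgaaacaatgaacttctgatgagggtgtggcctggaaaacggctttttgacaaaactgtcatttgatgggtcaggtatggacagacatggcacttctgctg

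The full element, which reads the same on both strands, was present in 1 member, Prkar1a, where it began at position -49 relative to the start shown and also lay within the window of another of its 6 starts. It was present in 1.79% of all 32851 promoters of the same length. An arm, searched on both strands as TGACG or CGTCA and counted also inside the full element, was found in 8 of the 24 promoters, of 6 members, against 20.8% of all promoters. The 2 Prkar1a windows with the full element overlap and hold the same arms, so these sites are counted in both. The 8 promoters are thus not separate, and no excess was tested. The upstream start of Prkaca held 2 arms, beginning at positions -120 and -6 relative to it, while its downstream start, 3905 bases away, held none. The Adcy10 window also lacked both motifs. Of the windows not printed, that of Pde4d lacked both and had 2 CG pairs, and that of Pde8a held an arm at position -84. The windows of the downstream Prkaca start and of Adcy10 had 2 and 5 CG pairs, and those of the upstream Prkaca start, Prkar2a and Prkacb had 31, 31 and 41, where the median of all promoters was 7. Prkacb has 3 RefSeq starts, of which the one shown holds the arm, and the others had 2 and 5 CG pairs and no arm. A match of these letters is a description of the window and not evidence of binding. The gene-level values below add the reads of all starts of a gene.

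The values are read counts scaled to a library total of 1000000 (CPM). All values of a library were whole multiples of 1 step (within 0.01 of a whole number). With the step taken as 1 read, the libraries held 32064384 to 37551057 reads, and 1 read was worth 0.0266 to 0.0312 CPM. Errors given after ± are SDs (wild type n = 4, mutant n = 3). The test for each gene was that of limma, run on log2(CPM + 0.1), a scale that understates the change of genes with low values, and genes were called at an FDR (Benjamini-Hochberg) below 0.01 over 17126 tested genes. Of these, 50.4% were called, 36.3% higher and 14.2% lower in the mutants, so a call by itself does not set a gene apart. Over all genes the log2 fold changes had a median of 0.121. The median was -0.013 when CPM were divided by median-of-ratios size factors, under which 52.1% were called, 27% higher and 25.1% lower. Changes of members are therefore also given relative to that median. Iqch RNA itself was lower in the mutants, as the labels imply, at 67.3 ± 2.25 CPM against 208 ± 11.3 CPM.

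Among the 10 members, where 50.4% of all tested genes were called, 2 were called higher (Prkacb and Prkar1a), 4 were called lower (Adcy10, Prkar2a, Pde8a and Pde4d) and 4 were not called. The largest differences were in Prkacb, 1.91-fold higher, and Pde4d, 2.12-fold lower, while the abundant Prkar2a was 1.33-fold, Adcy10 1.19-fold and Pde8a 1.15-fold lower. Their median log2 fold change was 0.13, beside 0.12 for all genes. After scaling by size factors Prkar1a was no longer called, which left 1 member higher, and the 4 lower members stayed called. In bulk testis, fewer cells of a type and less RNA per cell cannot be told apart. All 6 markers of elongating spermatids were called lower, and their summed level in the mutants, 13570 to 15635 CPM, lay below the 21418 to 22655 CPM of the wild type. Of the 6 round spermatid markers, 4 were called lower (1029 to 1095 CPM in the mutants, 1175 to 1245 CPM in the wild type). After scaling all 6 were called lower, and without mutant 2 on the deposited scale 2 were. All 6 Sertoli cell markers were called higher, 4 of them also after scaling, and their sums were 971 to 1057 CPM in the wild type and 2049 to 2182 CPM in the mutants. Of these markers, Amh kept its call in 1 of 7 fits that left out a library, and Sox9 lost it without mutant 2. Of the 6 Leydig cell markers, 5 were called higher (997 to 1202 CPM and 4214 to 4393 CPM), and all 6 macrophage markers were (73.2 to 80.7 CPM and 222 to 253 CPM). Of the 6 spermatocyte markers, 1 was called higher, and after scaling 2 were called lower instead. Their sums were 870 to 904 CPM in the wild type and 826 to 904 CPM in the mutants. Among the 6 spermatogonial markers, 3 were called higher, and 1 was after scaling. On the deposited scale without wild type 2 or without mutant 2, 1 was called. The spermatogonial markers summed to 211 to 226 CPM in the wild type and to 264 to 305 CPM in the mutants. Peritubular myoid markers, of which 5 were tested with 1 called higher and 1 lower, had smaller sums in the mutants (286 to 326 CPM) than in the wild type (346 to 419 CPM). Endothelial markers, 2 of 5 called higher, summed to 30.6 to 34.5 CPM in the wild type and to 44.0 to 46.4 CPM in the mutants. No marker in the table was at 0 in any library. The part of cell composition in the results on the members was not tested.

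**Figure D1:**
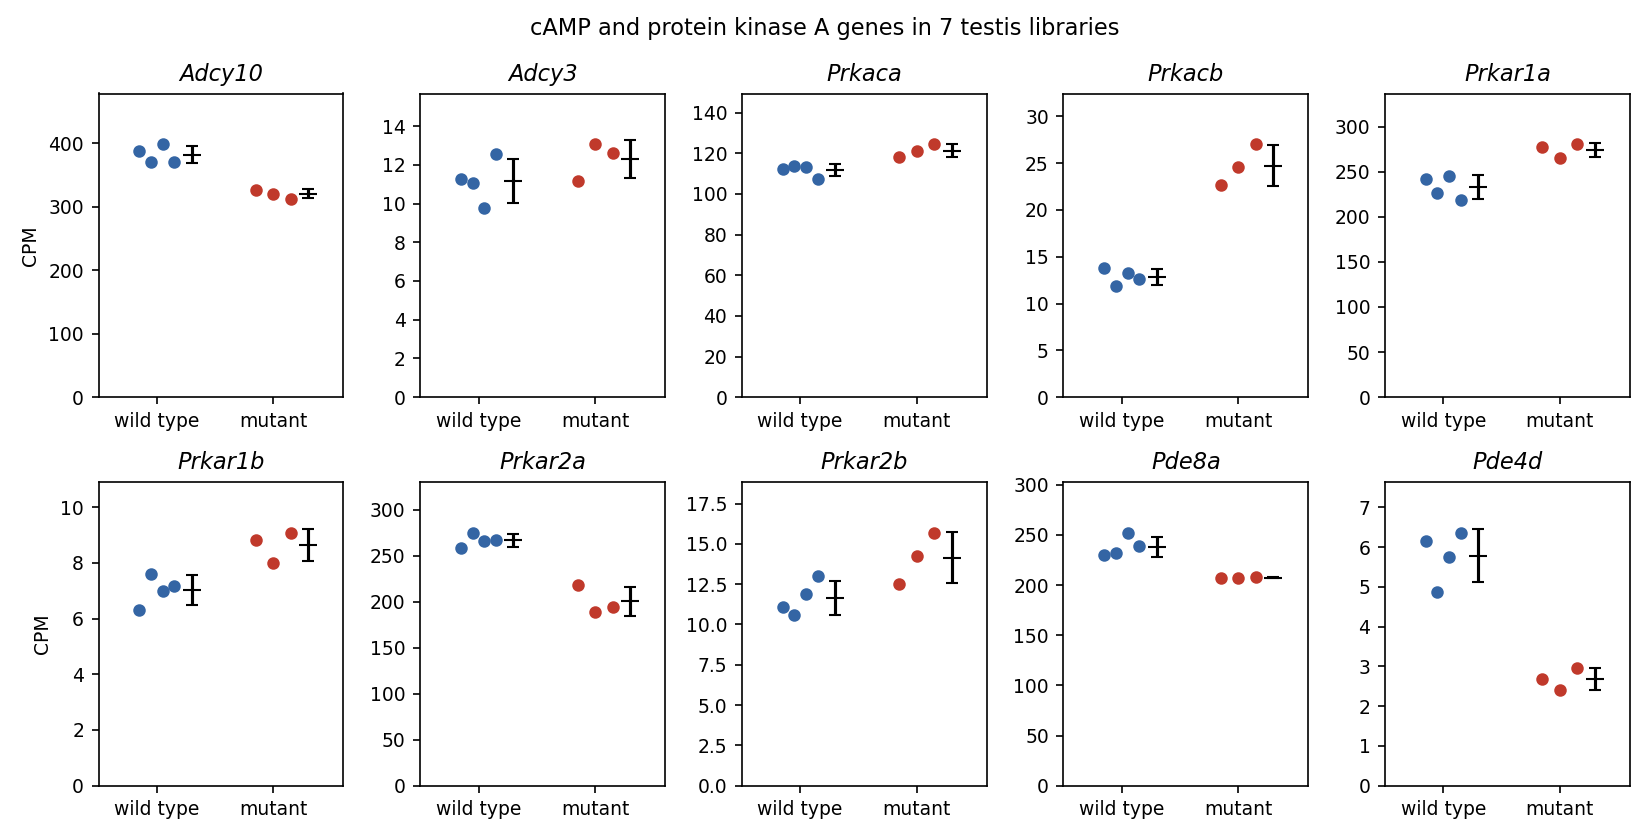
CPM of the 10 cAMP and PKA genes (vertical axes from 0, a different scale for each gene) in the 4 wild-type (blue) and 3 mutant (red) libraries, 1 point per library, with the mean and SD in black. Prkacb lay at 22.6 to 27.0 CPM in the mutants, above all wild-type libraries, and Pde4d at 2.40 to 2.95 CPM, below all of them, while the groups overlapped for Adcy3 and Prkar2b.

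Of the adenylyl cyclases, Adcy10 fell and Adcy3 did not pass the test. Adcy10 (ENSMUSG00000026567, chromosome 1 from 165312752 to 165404344 in GRCm39), the soluble cyclase of sperm, was at 388, 371, 399 and 371 CPM in wild type 1 to 4 and at 327, 321 and 313 CPM in mutants 1, 2 and 4. Every mutant library lay below every wild-type library, with little spread on either side. The log2 change was -0.25 (standard error 0.04, limma FDR 1.2e-04), or -0.38 relative to the median of all genes. Adcy3 (ENSMUSG00000020654, chromosome 12 from 4182969 to 4263527), a membrane-bound cyclase best known from olfactory neurons and primary cilia, was at 11.2, 11.04, 9.77 and 12.5 CPM in the wild type and at 11.2, 13.1 and 12.6 CPM in the mutants. These values overlapped, and the log2 fold change of 0.14 had a 95% confidence interval from -0.07 to 0.35 (limma FDR 0.227). Its exons share 2363 bp with Cenpo on the opposite strand, and the strand setting of the counting is not given in the sources used here, so its level is uncertain.

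Of the catalytic subunits of PKA, the minor form rose while the major form was not called. Prkaca (ENSMUSG00000005469, chromosome 8 from 84699575 to 84723091) encodes Cα, of which sperm carry a variant made from an alternative first exon that gene-level counts cannot separate. It was at 112, 114, 113 and 107 CPM in wild type 1 to 4 and at 118, 121 and 125 CPM in mutants 1, 2 and 4. The mutants were above every wild-type library by a narrow margin, with a log2 fold change of 0.12 that was not called (95% confidence interval 0.03 to 0.21, limma FDR 0.0248). After scaling by size factors its direction turned, to -0.01 (95% confidence interval -0.11 to 0.08). Prkacb (ENSMUSG00000005034, chromosome 3 from 146435311 to 146518793) encodes Cβ, the second widely expressed catalytic subunit. It was at 13.8, 11.8, 13.3 and 12.6 CPM in the wild type and at 22.6, 24.6 and 27.0 CPM in the mutants. The lowest mutant was well above the highest wild-type library, and the log2 change was 0.94 (standard error 0.08, limma FDR 8.4e-07), or 0.81 relative to all genes and 0.80 after scaling by size factors.

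Of the regulatory subunits, the main type II form fell and the main type I form rose on the deposited scale. Prkar2a (ENSMUSG00000032601, chromosome 9 from 108566513 to 108627641) encodes RIIα, a subunit by which AKAPs of the sperm tail can hold PKA. It was at 258, 275, 266 and 267 CPM in wild type 1 to 4 and at 219, 189 and 194 CPM in mutants 1, 2 and 4. No mutant reached the wild-type range, and the log2 change was -0.41 (standard error 0.05, limma FDR 1.6e-05), or -0.54 relative to all genes. Prkar1a (ENSMUSG00000020612, chromosome 11 from 109513434 to 109560633) encodes RIα, the broadly expressed type I subunit, and its promoter holds the full cAMP response element printed above. It was at 242, 226, 245 and 218 CPM in the wild type and at 277, 265 and 281 CPM in the mutants, all above the wild type. The log2 change of 0.24 (standard error 0.05, limma FDR 8.8e-04) became 0.12 relative to all genes, and with size factors it was 0.10 (limma FDR 0.0976) and not called.

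The remaining regulatory subunits were scarce, and neither passed the test. Prkar1b (ENSMUSG00000025855, chromosome 5 from 139002025 to 139136646), for the RIβ subunit best known from neurons, was at 6.31, 7.60, 6.999 and 7.19 CPM in the wild type and at 8.82, 7.98 and 9.09 CPM in the mutants. The groups did not overlap, but the log2 fold change of 0.29 (95% confidence interval 0.08 to 0.51) had a limma FDR of 0.0202. Prkar2b (ENSMUSG00000002997, chromosome 12 from 32008448 to 32111363) encodes RIIβ, a hormone-regulated subunit of endocrine cells. It was at 11.1, 10.6, 11.9 and 13.0 CPM in the wild type and at 12.5, 14.2 and 15.7 CPM in the mutants. Wild type 4 lay above mutant 1, and the log2 fold change of 0.28 (95% confidence interval 0.06 to 0.49) had a limma FDR of 0.0267. Exons of Prkar1b share 500 bp with the lncRNA Gm15672 on its own strand and 301 bp with Dnaaf5 on the other, and those of Prkar1a 59 bp with Fam20a on the other.

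Both phosphodiesterases, set down as somatic members, fell. Pde8a (ENSMUSG00000025584, chromosome 7 from 80862941 to 80984284) encodes a high-affinity cAMP phosphodiesterase that restrains steroid synthesis in Leydig cells. It was at 230, 232, 252 and 239 CPM in wild type 1 to 4 and at 207, 207 and 208 CPM in mutants 1, 2 and 4. The mutants were nearly identical and all below the wild type, with a log2 change of -0.20 (standard error 0.04, limma FDR 0.00116), or -0.32 relative to all genes. Pde4d (ENSMUSG00000021699, chromosome 13 from 108586482 to 110092497), whose product ends hormone-driven cAMP signals, was at 6.16, 4.86, 5.75 and 6.36 CPM in the wild type and at 2.67, 2.40 and 2.95 CPM in the mutants. Every mutant library was far below the lowest wild-type library, and the log2 change was -1.08 (standard error 0.13, limma FDR 1.6e-05), or -1.20 relative to all genes.

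**Figure D2:**
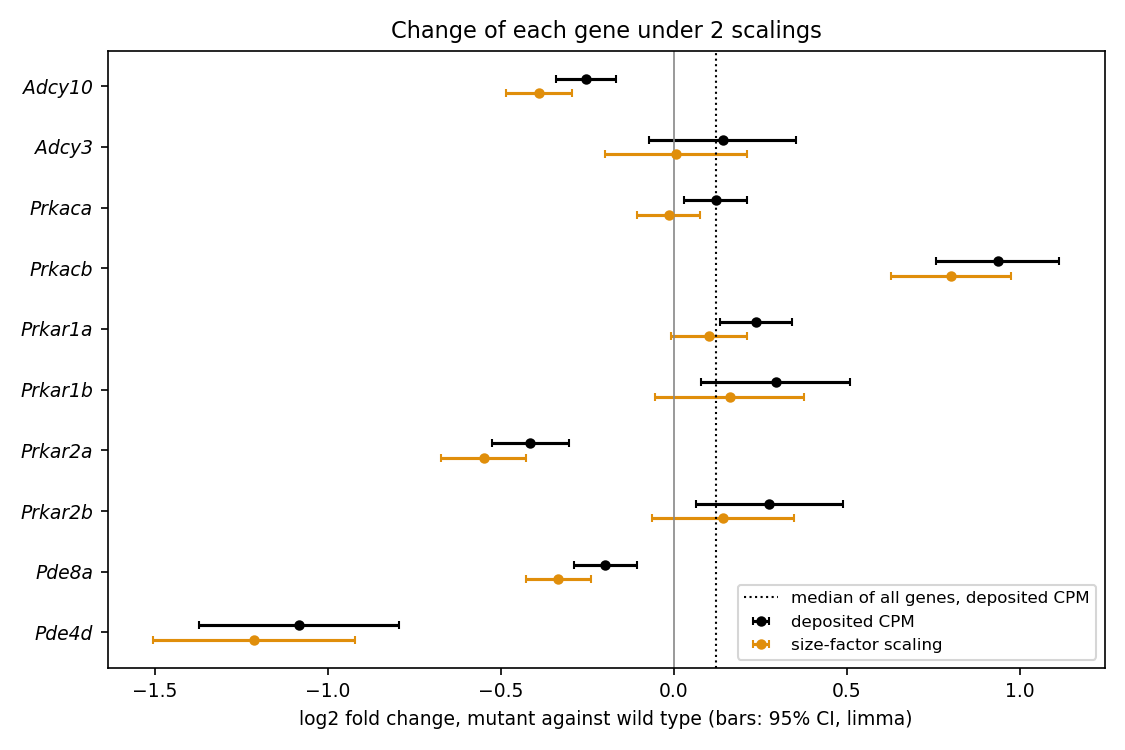
Log2 fold change of each cAMP and PKA gene, mutant against wild type (horizontal axis), on the deposited CPM (black) and after size-factor scaling (orange), with 95% confidence intervals from limma. The dotted line is the median of all genes, 0.121. Prkacb lies to the right and Pde4d, Prkar2a, Adcy10 and Pde8a to the left under both scalings, and the interval of Prkar1a reaches 0 after scaling.

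In 8 of the 10 members the groups did not overlap, 4 with higher and 4 with lower mutants, where 62.3% of all tested genes had groups apart, 42.8% with higher and 19.5% with lower mutants. For each of these 8, the two-sided exact permutation test on the mean log2(CPM + 0.1) gave p = 0.0286, the smallest that 3 against 4 libraries allow. The exact p was 0.2 for Adcy3 and 0.0857 for Prkar2b. Of the 4 sperm-enriched members, 2 were called lower (Adcy10 and Prkar2a) and 2 were not called, with a median log2 fold change of -0.07. Of the 6 somatic members, 2 were called higher (Prkacb and Prkar1a, with Prkar1a called on the deposited scale only), 2 lower (Pde8a and Pde4d) and 2 were not called, with a median of 0.26. Beside them the median of all genes was 0.12, and after scaling the class medians were -0.20 and 0.12, with -0.013 for all genes. Among all tested genes, 36.3% were called higher and 14.2% lower, or 27% and 25.1% after scaling. Members called lower thus stood in both classes, and the difference between the classes was not tested.

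Levels of different genes were compared as CPM per kb of all annotated exons. In wild-type testes, 5 members were abundant, with Adcy10 at 43.7 ± 1.56 CPM per kb, Prkaca at 39.7 ± 1.02, Pde8a at 38.1 ± 1.63, Prkar2a at 24.8 ± 0.644 and Prkar1a at 23.9 ± 1.34 CPM per kb. The other 5 were at least an order of magnitude below Prkar1a on this scale, from 2.07 ± 0.188 CPM per kb for Prkar2b through Prkacb at 1.43 ± 0.0948, Adcy3 at 0.899 ± 0.0915 and Prkar1b at 0.827 ± 0.0634 to 0.399 ± 0.0459 CPM per kb for Pde4d. The wild-type ranges of Prkaca and Pde8a overlapped, as did those of Prkar2a and Prkar1a and those of Adcy3 and Prkar1b, so these neighbours have no fixed order. Pde8a, set down as somatic, thus stood among the abundant members, and Adcy3, set down as sperm-enriched, among the scarce ones. With the length of the canonical transcript in place of all exons, a choice added after the values were seen, Adcy10 stayed first at 73.5 ± 2.61 CPM per kb and the same 5 genes were abundant, but Prkar1a came second at 61.0 ± 3.41 CPM per kb. Among the scarce members, Pde4d at 2.36 ± 0.271 CPM per kb was then no longer the lowest, and its range overlapped that of Adcy3 at 2.21 ± 0.225 CPM per kb. The order within the abundant members other than Adcy10, and within the scarce ones, therefore depends on the length used.

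Ratios of members within a library do not depend on the scaling between libraries. Per kb of exon, RNA of type II regulatory subunits (Prkar2a and Prkar2b) was 1.09 ± 0.0768 times that of type I subunits (Prkar1a and Prkar1b) in wild-type and 0.724 ± 0.0358 times in mutant testes. The 4 wild-type ratios were 1.01, 1.14, 1.03 and 1.17 and the 3 mutant ratios 0.765, 0.711 and 0.697, without overlap. Prkar2a made up 46.5% to 49.6% of the regulatory subunit RNA in wild-type and 35.5% to 39.0% in mutant libraries, and Prkar1a 44.4% to 48.2% and 54.7% to 56.8%. In the mutants Prkar1a was thus above Prkar2a in each library, whichever length was used. With canonical transcript lengths Prkar1a was already the higher in the wild type, and the ratio of Prkar2a to Prkar1a was 0.877 ± 0.0647 in wild-type and 0.558 ± 0.0396 in mutant testes.

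Prkaca RNA was 26.1, 30.8, 27.4 and 27.4 times that of Prkacb in wild type 1 to 4, and 16.8, 15.8 and 14.8 times in mutants 1, 2 and 4. The share of Prkacb in the catalytic subunit RNA was 3.14% to 3.69% in the wild type and 5.62% to 6.33% in the mutants, so Cα RNA remained in large excess in every library. Catalytic RNA was 0.797 ± 0.0107 times the regulatory RNA in wild-type and 0.914 ± 0.05 times in mutant testes. The wild-type values lay between 0.786 and 0.810 and the mutant values between 0.857 and 0.951. Adcy10 to Adcy3 ratios were 42.0 to 57.9 in the wild type and 34.8 to 41.5 in the mutants, and Pde8a to Pde4d ratios were 86.6 to 111 and 164 to 201. With canonical transcript lengths Prkaca was 16.5 ± 1.21 times Prkacb in the wild type and 9.34 ± 0.590 times in the mutants, and catalytic RNA was 0.421 ± 0.00490 and 0.483 ± 0.0270 times the regulatory RNA. On that scale the ratio of Pde8a to Pde4d was 21.7 to 27.8 and 41.1 to 50.4, and that of Adcy10 to Adcy3 28.7 to 39.6 and 23.8 to 28.4. The size of each ratio and share thus depends on the length used. For a ratio of 1 gene to another the length scales all libraries alike, so the side of the mutants could not change. It could in the ratio of catalytic to regulatory RNA, which sums genes, and there the mutants were higher with both lengths. These ratios are descriptions, with no test.

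**Figure D3:**
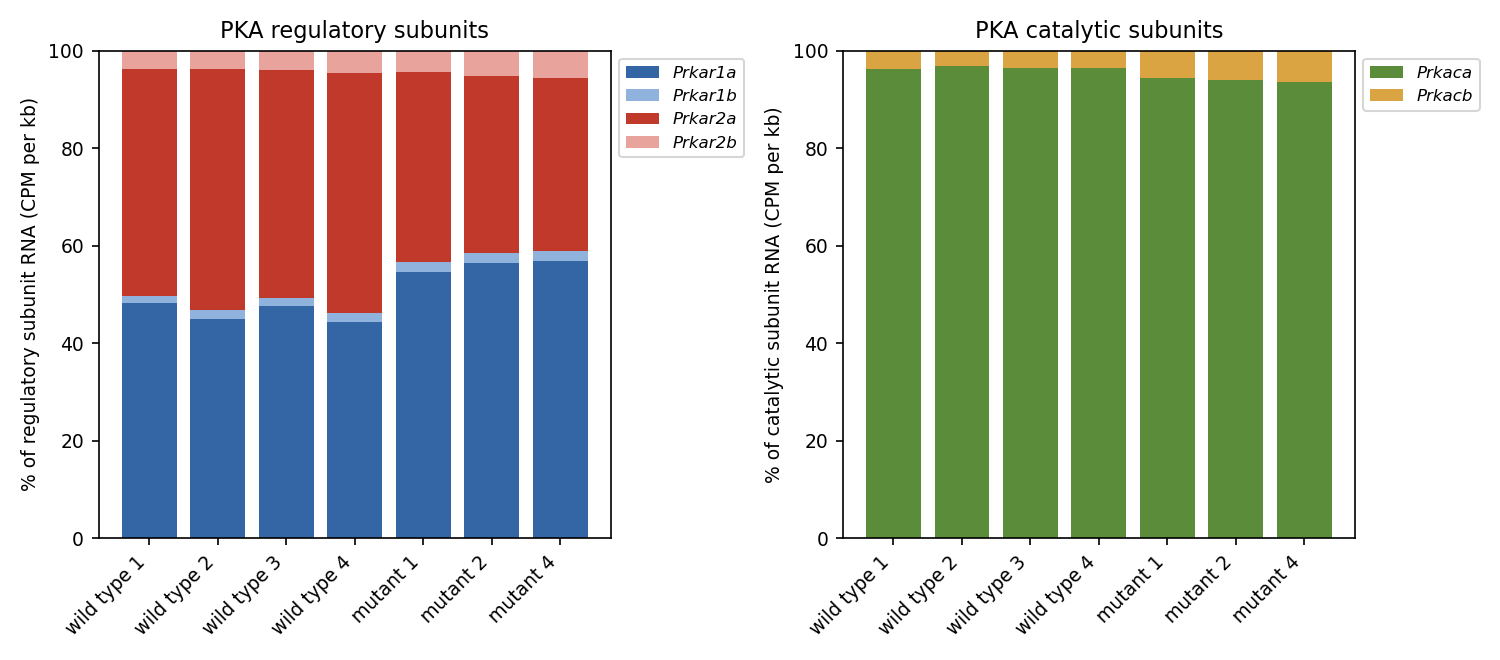
Share of each gene in the RNA of the PKA regulatory subunits (left) and catalytic subunits (right), in percent of the summed CPM per kb of exon, as stacked bars for each of the 7 libraries. Prkar2a takes 46.5% to 49.6% of the regulatory RNA in wild-type and 35.5% to 39.0% in mutant libraries, and Prkacb takes at most 3.69% of the catalytic RNA in the wild type and at least 5.62% in the mutants.

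The other genes of the pathway were taken by list. The counts of each list below are read beside all tested genes, of which 36.3% were called higher and 14.2% lower. After scaling by size factors these shares were 27% and 25.1%. No list was tested as a set. Of 11 tested genes among other adenylyl cyclases and G proteins, 5 were called higher and 1 lower. Adcy9, a widely expressed membrane cyclase, rose from 7.63 ± 0.521 to 16.0 ± 0.349 CPM, by 1.06 on the log2 scale (standard error 0.08, limma FDR 3.5e-07). Gnas, which encodes the stimulatory G protein subunit, rose by 0.82 and Gnai1, an inhibitory one, by 0.78 on the log2 scale. Adcy2 fell from 6.15 ± 0.712 to 3.21 ± 0.470 CPM, a change of -0.92, and its exons share 1637 bp with Cfap90 on the opposite strand. Adcy7 and Adcy6, at 0.19 and 0.33, were not called, but Adcy6 was called without wild type 1.

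Of 9 tested phosphodiesterases besides the members, 2 were called higher and 2 lower. With size factors these counts were 1 and 5. Pde8b, the paralog of Pde8a, moved the opposite way to it, from 3.92 ± 0.519 to 10.97 ± 0.801 CPM, by 1.47 on the log2 scale (standard error 0.12, limma FDR 4.8e-07). Pde1b, at 0.39, was not called without mutant 1, without mutant 4 or after scaling. The calmodulin-dependent phosphodiesterases Pde1a and Pde1c, both abundant, fell by 0.34 and 0.26 on the log2 scale. Pde4a at -0.06 and Pde3b at 0.12 were not called, and Pde4a was called lower after scaling. Pde4b, at 0.24, was called without mutant 1.

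The inhibitors that bind free catalytic subunits went in both directions. Pkia rose from 2.45 ± 0.334 CPM in the wild type to 10.5 ± 1.82 CPM in the mutants, by 2.05 on the log2 scale (standard error 0.15, limma FDR 1.6e-07), larger than that of any member. Pkib, much more abundant, fell from 114 ± 3.23 to 86.5 ± 4.41 CPM, a change of -0.40 (standard error 0.05, limma FDR 1.1e-05). Pkig, at 143 ± 7.34 and 134 ± 1.22 CPM, was not called and was called lower after scaling. The related kinase gene Prkx, whose product is also held by PKA inhibitors, rose by 1.08 (standard error 0.08, limma FDR 3.1e-07).

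Of 17 tested A-kinase anchoring and RII-docking genes, 4 were called higher and 7 lower, with a median log2 fold change of -0.13. After scaling 1 was higher and 9 lower. Akap4, the main protein of the fibrous sheath of the sperm tail, fell from 1858 ± 59.9 to 1411 ± 46.2 CPM, a change of -0.40 (standard error 0.04, limma FDR 2.5e-06). Akap4 is also among the 6 elongating spermatid markers above, so the 2 results are not separate. Ropn1, a fibrous sheath protein with an RII-like docking domain, fell by 0.34 and Akap12 by 0.26 on the log2 scale. Akap13, a widely expressed anchoring protein gene, rose from 29.2 ± 2.39 to 51.2 ± 1.68 CPM, a change of 0.81 (standard error 0.07, limma FDR 5.6e-07). Akap3 at -0.16 and Akap10 at -0.13 were not called, and both were called lower after scaling. Akap8 was not called without mutant 2, nor Akap11 without wild type 2, mutant 2 or mutant 4.

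Of 3 tested cAMP effectors other than PKA, the Epac genes Rapgef4 and Rapgef3 were called higher, by 0.76 and 0.65 on the log2 scale. Slc9c1, the sperm sodium-proton exchanger with a cyclic nucleotide binding domain, was at 114 ± 9.95 and 118 ± 0.781 CPM and was not called. Of 9 genes of the CREB family and its coactivators, 6 were called higher and 1 lower, and 3 and 2 after scaling. The coactivators Crtc2, Crtc1 and Crtc3 rose by 0.59, 0.54 and 0.53. Fhl5, a coactivator of CREM in spermatids, fell from 228 ± 25.1 to 185 ± 3.11 CPM, a change of -0.30, and was not called without mutant 4. Creb1 at 0.28, Ep300 at 0.21 and Atf1 at 0.20, 3 of the 6 called higher, were not called after scaling. Creb1 was also not called without wild type 1, wild type 2 or mutant 2, and Atf1 and Ep300 each kept their call in 1 of 7 fits that left out a library. On the deposited scale, Crem at -0.16 and Crebbp at 0.22 were not called. Crem was called lower after scaling, at -0.30, and also without wild type 4 or mutant 4, and Crebbp was called without mutant 1. The paper, which tested normalized counts with edgeR and DESeq2, lists Crem among its genes with lower expression in the mutants. The count of called genes was 4 without wild type 1, wild type 2 or mutant 2.

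Of 6 tested genes that cAMP is known to induce rapidly, Nr4a1 alone was called, lower by 0.22 on the log2 scale (43.4 ± 2.99 and 37.2 ± 1.13 CPM). It kept its call without wild type 3 and lost it without any one of the other 6 libraries, with limma FDRs up to 0.0325. Star, which carries cholesterol into mitochondria for steroid synthesis, was at 117 ± 28.7 and 138 ± 33.6 CPM, with overlapping groups, and Per1 at 175 ± 22.6 and 170 ± 6.11 CPM. Of 2 tested Gs-coupled hormone receptors, Lhcgr, the LH receptor of Leydig cells, rose from 12.7 ± 1.77 to 27.3 ± 6.02 CPM, a change of 1.09 (standard error 0.14, limma FDR 1.9e-05). Star and Lhcgr are also among the 6 Leydig cell markers above. Adrb1 was at 7.08 ± 1.10 and 6.71 ± 0.0587 CPM and was not called.

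**Figure D4:**
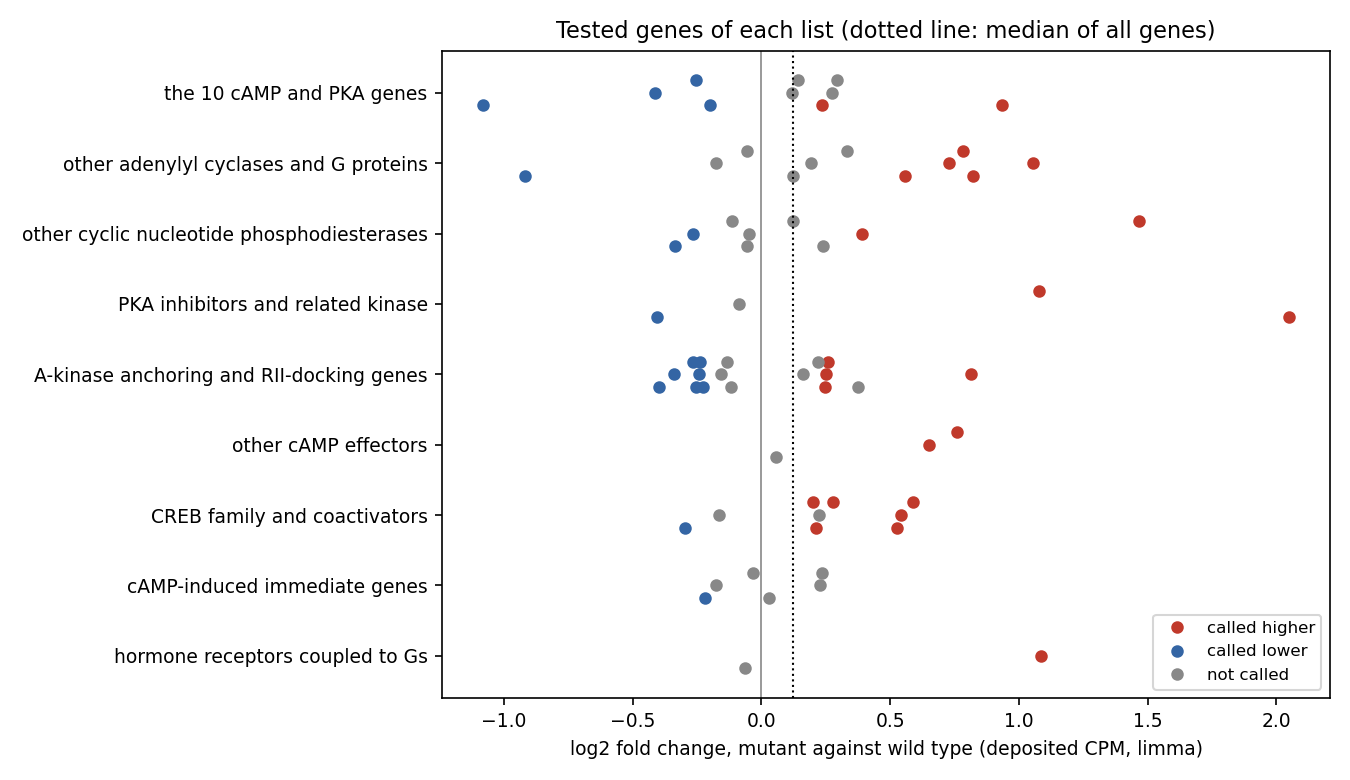
Log2 fold change, mutant against wild type on the deposited CPM (horizontal axis), of every tested gene of each list, 1 point per gene, coloured by its limma call at an FDR of 0.01. The dotted line is the median of all genes, 0.121. Pkia at 2.05 and Pde8b at 1.47 lie farthest right and Pde4d at -1.08 farthest left, and anchoring genes lie on both sides.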

How the data were processed

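Reads were trimmed with Trimmomatic, mapped to GRCm39 with Subread and counted per gene with featureCounts by the authors, who dropped genes with few reads. The deposited values are CPM, summing to 1000000 per library over 17127 genes. Filter and tools are from the paper's methods and the submitters' processing notes. The annotation release and the strand setting of the counting are not given in the sources used here.

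In R 4.3.3, log2(CPM + 0.1) was fitted with limma 3.58.1 and a mean-dependent prior variance, for the 17126 genes that reached 2.2 CPM in at least 2 libraries of the same genotype. It was first run on simulated data in which few genes changed, equally often up and down, so that run does not bear on the scaling. Symbols, coordinates and exon lengths came from GENCODE M39 (17045 genes, 99.5%, matched). Python 3.11.15, NumPy 2.4.6, pandas 2.3.3 and matplotlib 3.10.9 were used for the rest. The members and lists were chosen with earlier results of these data known. All members are named, and of each other list up to 4 called genes with the largest change and up to 2 genes not called with the highest level. Other genes of these lists are named after their values were seen, where leaving out 1 library changed their call. The replicate numbers showed no sign of pairing the libraries. All p-values measure the spread between mice, 1 library each.

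Alternatives were size factors, pseudocounts of 1 and 0.01, no minimum, a minimum of 5 CPM, sample weights, the replicate number as a block, and each library left out. Tests on counts were not run, since the deposited values are CPM. Exons of Adcy7, Akap13, Crem, Gnas, Iqch, Pde3b, Pkig and Star also share bases with a gene of the table on the opposite strand, and those of Adcy9 with a pseudogene on its own, so their values are uncertain. Exons of some markers, such as Insl3, Izumo1, Csf1r and Prm1, and of some list genes counted but not named share bases with another gene of the table too. The marker sums and list counts therefore carry the same uncertainty. Per-length levels were repeated with canonical transcripts, chosen after seeing the data.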

Additional observations from a re-analysis of the deposited data

How the results depend on the processing

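Of 140 values of the 10 members under other settings, 137 kept their direction and their side of the threshold. Changing the minimum could move only the FDR of a member and not its log2 fold change. The replicate block gives the same log2 fold changes as leaving out wild type 3. After scaling by size factors, the log2 fold change of Prkaca turned to -0.0145 and Prkar1a, at 0.10, was no longer called, which left 1 member called higher, and 4294 of all genes were called lower. With sample weights, Prkar2b was called at 0.34. With each library left out in turn, 2 members were called higher and 4 lower each time, 4 to 7 genes of the CREB family and its coactivators were called, and 0 to 1 of the cAMP-induced genes, of which 1 to 3 had an unadjusted limma p below 0.05. The cause was not tested. With the replicate number as a block, wild type 3 dropped out, 2 members were called higher and 4 lower (Prkar2a at -0.42), and 5579 of all genes were called higher and 2126 lower. Deviations of libraries with the same number correlated at 0.03, 0.01 and -0.10, and those with other numbers at -0.06 to 0.07. These few values show no sign that the numbers pair the mice but cannot exclude it. The planned count tests were not run on these CPM. Genes below about 3 CPM, such as Pde4d in the mutants, rest on the fewest reads, and the 3 mutant libraries limit what differences could be called.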
